A study of Rattus norvegicus with 12 samples.

Results

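Heart cell cultures from newborn rats that received 50 µg/ml of di(2-ethylhexyl) phthalate (DEHP) were compared with cultures given the vehicle alone. The comparison used 6 of the 12 Affymetrix arrays of the study, 3 titled for 50 µg/ml of DEHP and 3 titled as controls at 0 µg/ml. All 14324 genes that had a probe set with exactly 1 gene symbol entered it, with the mean taken over the probe sets of a gene. Both groups held cells isolated by enzymatic digestion from the hearts of Sprague-Dawley pups aged 2 days and kept in culture for 3 days before a treatment of 3 days. The vehicle was 0.1% dimethyl sulphoxide (DMSO), which the DEHP cultures also received. The other 6 arrays came from cultures given 10 or 1 µg/ml, with 3 arrays at each dose, and are used where 50 µg/ml is set against a lower dose. All cultures came from 1 litter and the arrays of a group are described as biological replicates, so every p-value reflects variation among cultures of that litter only. The labels name no step that separated heart muscle cells from the other cells of the heart.

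DEHP is a plasticiser that leaches out of polyvinyl chloride, including medical tubing and blood bags. In rodent liver its metabolites activate the nuclear receptor PPAR alpha and with it the genes of fatty acid oxidation. Neonatal heart cultures contract spontaneously and hold, beside muscle cells, fibroblasts, endothelial cells and resident macrophages in shares that depend on the isolation. In such bulk cultures, fewer cells of a type and less RNA per cell cannot be told apart.

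Every value below is the log2 of a deposited ratio, in which each array is set against the middle value of that probe set among all 12 arrays. A value of 0 is therefore the middle of the 12 arrays, a difference of 1 is a 2-fold difference, and levels cannot be compared between genes. Because the level was lost in this division, the presence of heart muscle markers could not be checked and no probe set could be called near background. The reading of a larger ratio as more RNA is not recorded in any source used here, and with the ratio turned every rise given below would be a fall of the same size and every fall a rise. Differences are given as 50 µg/ml minus vehicle ± the standard error of the limma fit, with 3 arrays in each group. A gene is said to have risen or fallen when its Benjamini-Hochberg adjusted p over all genes was under 0.05. The 3 arrays at 50 µg/ml correlated with each other at 0.725 to 0.81 over all 14324 genes, as a description, and the 3 vehicle arrays at 0.287 to 0.342. In ratios to the middle of the 12 arrays, a group far from that middle shares an offset and a group near it does not. These correlations therefore do not compare how well the groups replicated. The SD of the log2 ratios over all probe sets was 0.166 to 0.199 in the arrays at 50 µg/ml and 0.0869 to 0.0918 in the vehicle arrays. Replicate 2 of 10 µg/ml stood apart from the others of its dose, with an SD of 0.17 against 0.0967 and 0.0881.

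The response at 50 µg/ml was wide, near balanced in direction and mostly small. Of 14324 genes, 1254 rose (8.75%) and 1266 fell (8.84%), together 17.6%. The median over all genes was 0.02, over the genes that rose 0.31 and over those that fell -0.36, and 95.8% of the changed genes differed by less than 2-fold. Beyond 1 log2 unit there were 33 rises and 74 falls, and beyond 2 units 3 rises and 2 falls. The arrays of both groups did not overlap in 36% of genes. With 1 array left out in turn, the rises numbered 870 to 1531 and the falls 853 to 1622, and 1458 of the 2520 genes were called in all 12 omissions. Counts of gene lists are given with all arrays. Each is to be read against the 8.75% of all genes that rose and the 8.84% that fell. List counts of 0 to 3 genes moved by up to 3 genes when 1 array was left out, and larger counts are followed by their value wherever an omission moved them by more than 1.5 times.

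**Figure D1:**
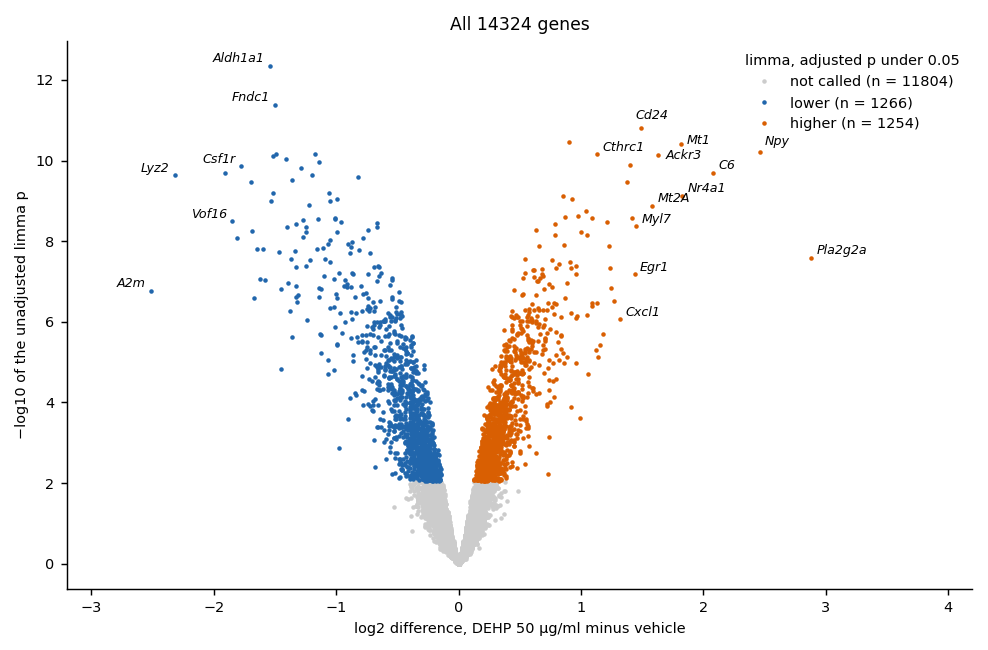
The log2 difference between 50 µg/ml and the vehicle (x axis) is plotted against −log10 of the unadjusted limma p (y axis) for each of the 14324 genes, orange for the 1254 that rose, blue for the 1266 that fell and grey for the rest. Pla2g2a, Npy and C6 lie farthest to the right at 2.88, 2.46 and 2.08, and A2m and Lyz2 farthest to the left at -2.51 and -2.32.

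With the ratios read as array over middle value, the largest rise was that of Pla2g2a (turned, it would be that of A2m), which encodes a secreted phospholipase A2 that is induced in inflammation and releases fatty acids from membrane phospholipids. Its values were -0.19, 0.63 and -0.04 in the vehicle arrays and 2.77, 2.66 and 3.60 at 50 µg/ml. All 3 treated arrays lay more than 2 log2 units above the highest vehicle array. The difference was 2.88 ± 0.24 (limma adjusted p = 4.56e-06), a ratio of 7.35, and it lost its call when the prior variance was allowed to follow the mean (adjusted p = 0.256). In that setting the mean is that of a gene's log2 ratios and not its level, and a change at 50 µg/ml shifts this mean too. Npy, the precursor of neuropeptide Y, a transmitter of sympathetic nerves, stood at -0.25, 0.01 and -0.01 in the vehicle arrays and at 2.55, 2.42 and 2.17 at 50 µg/ml. It rose by 2.46 ± 0.12 (adjusted p = 9.79e-08), with the vehicle arrays within 0.3 log2 units of each other. C6, a component of the membrane attack complex of complement, stood at -0.20, -0.02 and 0.05 against 2.01, 1.74 and 2.34 and rose by 2.08 ± 0.11. When the arrays were quantile normalized again, which forces them to 1 spread, these rises shrank to 1.44, 1.34 and 1.23 and were still called.

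Other large rises belonged to genes of several kinds. Ackr3, a receptor that scavenges the chemokine Cxcl12, rose by 1.63 ± 0.08, and Cd24, a surface glycoprotein of immature cells, by 1.49 ± 0.07, with values of -0.12, -0.21 and 0.00 against 1.47, 1.29 and 1.37. Neither gene had a vehicle array within 1 log2 unit of a treated one. The prostaglandin transporter Slco2a1 rose by 1.38 ± 0.08, and its 3 treated arrays lay at 1.15, 1.13 and 1.15. The carboxypeptidase Cpz, whose protein binds Wnt ligands, rose by 1.40 ± 0.07 and the secreted collagen-repeat protein Cthrc1 by 1.13 ± 0.06. Lcn2, a protein that binds bacterial iron carriers and is induced in inflammation, rose by 1.27 ± 0.13. Gfpt2, which starts the hexosamine pathway, rose by 1.24 ± 0.11. The calpain-like Capn6 rose by 1.25 ± 0.12, the phospholipase-domain gene Plcxd3 by 1.42 ± 0.10 and Lypd1, a membrane-anchored protein, by 1.23 ± 0.10. Akr1c14, a reductase of steroids, rose by 1.13 ± 0.12 and the aldehyde oxidase Aox3 by 1.12 ± 0.15, and their relatives Akr1c15 and Aox1 by 1.09 ± 0.07 and 1.09 ± 0.11. Relatives as alike as these may share signal on an array, so each pair's values are not separate measurements with certainty.

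**Figure D2:**
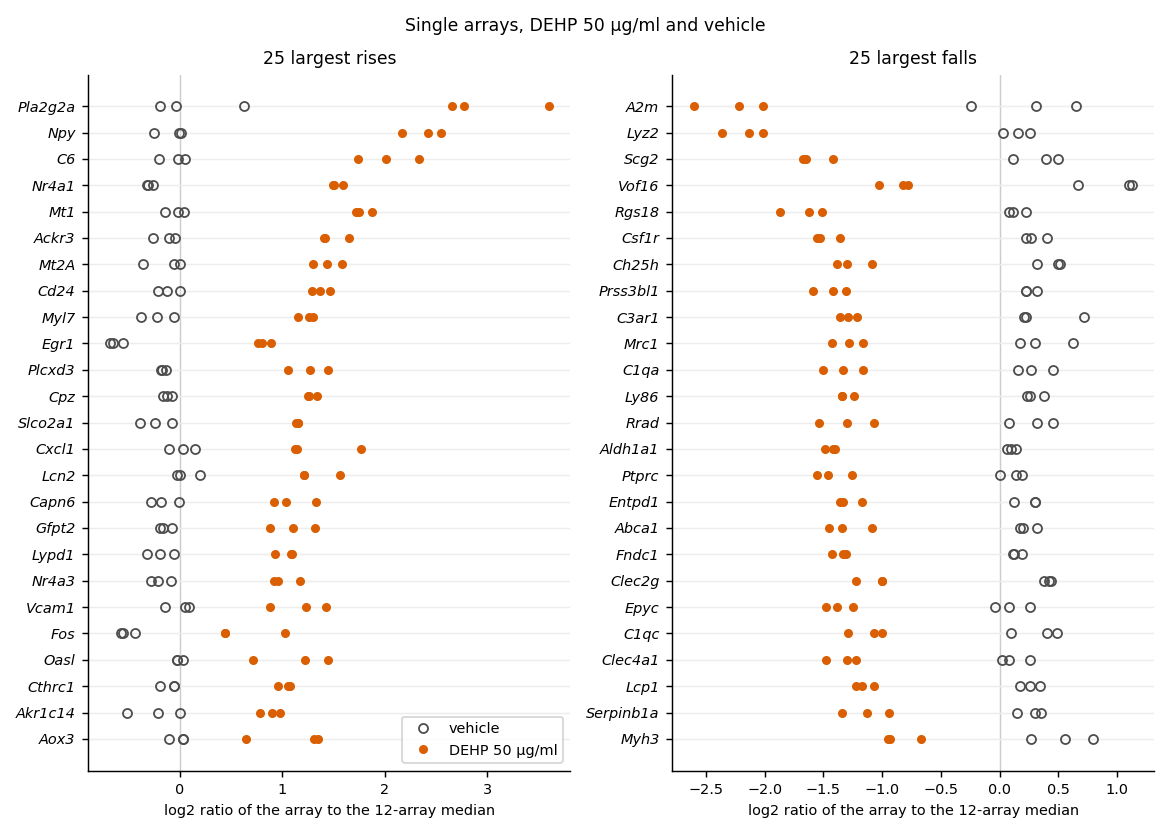
Each row is one gene, open grey circles are the 3 vehicle arrays and orange circles the 3 arrays at 50 µg/ml, and the x axis is the log2 ratio of the array to the median of the 12 arrays. The left panel holds the 25 largest rises and the right panel the 25 largest falls, chosen among genes whose groups did not overlap, so the gap between the circles is part of the choice.

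Among the largest falls, A2m, a broad inhibitor of proteases whose transcription follows STAT3 in rats, stood at 0.65, -0.24 and 0.31 in the vehicle arrays and at -2.01, -2.60 and -2.22 at 50 µg/ml. It fell by 2.51 ± 0.24 (adjusted p = 1.68e-05), to 0.175 of the vehicle, and stood at -1.39 after a repeated quantile normalization. The granin Scg2, a protein of secretory granules, fell by 1.91 ± 0.10, from 0.11, 0.39 and 0.50 to -1.65, -1.67 and -1.42. The smallest p of all genes was that of Aldh1a1, which makes retinoic acid from retinaldehyde, at 0.14, 0.06 and 0.10 against -1.49, -1.42 and -1.40. It fell by 1.54 ± 0.05 (adjusted p = 6.33e-09). Fndc1, a protein with fibronectin domains, fell by 1.50 ± 0.06, and its treated arrays spanned -1.43 to -1.31. The proteoglycan Epyc fell by 1.47 ± 0.12. Rrad, a small GTPase that restrains the L-type calcium channel, fell by 1.58 ± 0.14, from 0.45, 0.32 and 0.08 to -1.30, -1.54 and -1.07. Vof16 fell by 1.85 ± 0.13, Prss3bl1 fell by 1.69 ± 0.12, Clec2g fell by 1.49 ± 0.07 and the protease inhibitor Serpinb1a fell by 1.40 ± 0.10. All 50 genes of both panels kept their call in each of the 12 omissions of an array.

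The metallothioneins Mt1 and Mt2A, small cysteine-rich proteins that bind zinc, copper and cadmium, were among the 25 largest rises. Zinc switches these genes on through the factor MTF-1, which binds short metal response elements, and glucocorticoids and oxidants also induce them. Their promoters are shown because both genes stand next to each other on rat chromosome 19 and moved together. The 250 bases before each start site, from RefSeq on build GRCr8, lie on the minus strand at chr19:10832976-10833225 for Mt1 and chr19:10838709-10838958 for Mt2A. Capitals mark the core of the metal response element, searched as TGCACNC or TGCGCNC on both strands.

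Mt1: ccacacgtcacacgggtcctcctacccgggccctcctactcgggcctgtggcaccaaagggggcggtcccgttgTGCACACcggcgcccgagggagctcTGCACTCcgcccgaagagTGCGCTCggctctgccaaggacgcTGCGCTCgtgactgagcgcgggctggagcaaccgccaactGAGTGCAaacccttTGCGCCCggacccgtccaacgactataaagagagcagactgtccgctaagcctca

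Mt2A: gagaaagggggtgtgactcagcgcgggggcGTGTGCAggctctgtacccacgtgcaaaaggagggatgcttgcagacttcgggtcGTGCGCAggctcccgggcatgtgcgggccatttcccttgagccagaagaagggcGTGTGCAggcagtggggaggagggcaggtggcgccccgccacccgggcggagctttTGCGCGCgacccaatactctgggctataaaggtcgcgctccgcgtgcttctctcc

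The core was found at 6 places in the Mt1 promoter and at 4 in that of Mt2A, and 21.6% of the 24206 promoters of the table held at least 1. Among measured genes with a promoter the share was 27%, among those that rose 31.3% and among those that fell 32.1%. Such a match is a description of letters and not of binding. Mt1 stood at -0.14, -0.02 and 0.04 in the vehicle arrays and at 1.75, 1.72 and 1.88 at 50 µg/ml, and rose by 1.82 ± 0.09 (adjusted p = 9.79e-08). Mt2A stood at -0.36, -0.06 and 0.00 against 1.44, 1.30 and 1.58 and rose by 1.58 ± 0.10 (adjusted p = 5.53e-07). In both genes the treated arrays lay more than 1 log2 unit above all vehicle arrays. A repeated quantile normalization reduced the difference of Mt1 to 1.02 and left it called. The neural metallothionein Mt3 stood at -0.12 and MTF-1 itself (Mtf1) at -0.07, and neither passed the test. Of 14 measured genes of metal binding and zinc transport 4 rose and 1 fell, with a median of 0.08, and without 50 µg/ml replicate 1, 50 µg/ml replicate 3 or vehicle replicate 3 the rises numbered 2. Of 17 genes of iron handling 5 rose and 2 fell, with 3 risen without 50 µg/ml replicate 3, vehicle replicate 2 or vehicle replicate 3 and after a repeated quantile normalization. Besides Lcn2, the haem oxygenase Hmox1, which frees iron from haem, rose by 0.65 ± 0.06 and the metalloreductase Steap4 by 0.77 ± 0.12. The ferroxidase ceruloplasmin (Cp) fell by 0.54 ± 0.09 and the iron exporter ferroportin (Slc40a1) fell by 0.28 ± 0.05.

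Macrophage markers had the largest share of changed members of all 78 gene lists. The lists and their members were chosen with earlier results of these data known, so this rank and share are a description. Resident macrophages of the heart depend on colony stimulating factor 1 through its receptor Csf1r and clear cell debris. Of 39 measured markers 34 fell and none rose, with a median of -1.01, against 8.84% of all genes lower. In each omission of 1 array 32 to 34 of them fell, and 32 after a repeated quantile normalization. The median of the list in single arrays was 0.11 to 0.21 with the vehicle and -0.68 to -0.66 at 50 µg/ml, so the 3 treated arrays lay within 0.02 of each other. Lyz2, the lysozyme of macrophages and monocytes, stood at 0.26, 0.03 and 0.16 against -2.01, -2.13 and -2.36 and fell by 2.32 ± 0.13 (adjusted p = 1.67e-07). Csf1r stood at 0.27, 0.40 and 0.22 against -1.36, -1.53 and -1.55 and fell by 1.78 ± 0.09. The lowest vehicle array exceeded the highest treated one by more than 1.5 log2 units in both genes.

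The fall covered surface receptors, complement subunits, enzymes and a transcription factor of these cells. Among receptors, the mannose receptor Mrc1 fell by 1.65 ± 0.13, the phosphatase Ptprc of white blood cells fell by 1.53 ± 0.10, the folate receptor Folr2 fell by 1.14 ± 0.11, the endotoxin co-receptor Cd14 fell by 1.02 ± 0.09 and the lipid sensor Trem2 fell by 0.72 ± 0.09. The fractalkine receptor Cx3cr1 fell by 0.84 ± 0.09 and the anaphylatoxin receptor C3ar1 fell by 1.67 ± 0.17. The 3 chains of C1q, which macrophages make, fell by 1.62 ± 0.15 (C1qa), 1.07 ± 0.15 (C1qb) and 1.45 ± 0.21 (C1qc). Entpd1, which removes phosphate from extracellular ATP, fell by 1.52 ± 0.08, the pore protein Mpeg1 fell by 1.36 ± 0.17 and the oxidase subunit Cybb fell by 1.07 ± 0.08. Spi1, the factor that specifies the myeloid lineage, fell by 0.60 ± 0.09. Ly86, Clec4a1, Rgs18 and Lcp1, all genes of blood-derived cells, fell by 1.60 ± 0.13, 1.45 ± 0.14, 1.81 ± 0.13 and 1.41 ± 0.07. The 5 markers that did not pass were Lyve1 at 0.22, Cyba at -0.12, Vsig4 at -0.05, Cd163 at 0.04 and Ms4a7 at -0.01.

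Lymphocyte and granulocyte markers showed no such fall. As the ratios keep no level, a marker that is not expressed in these cultures cannot be told from one that did not change. Of 17 markers of T cells, B cells and natural killer cells 1 fell and none rose (5.88%), with a median of 0.02. The gene that fell was Cd4, by 1.31 ± 0.13, and rat macrophages are known to carry it, while Cd3e, the T cell receptor chain, stood at 0.02 ± 0.06. Of 16 neutrophil and mast cell markers 1 rose and none fell (6.25%), against 17.6% of all genes called. Genes of antigen presentation on class II molecules were mixed. Ctss, the cathepsin that trims the invariant chain, fell by 1.36 ± 0.08, the peptide loaders RT1-DMb and RT1-DMa fell by 1.33 ± 0.13 and 0.68 ± 0.12, and the invariant chain Cd74 fell by 0.40 ± 0.09. The class II chains RT1-Da, RT1-Ba and RT1-Bb stood at -0.14, -0.11 and -0.12, and none of them passed. No gene of this list of 18 rose.

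Markers of the other heart cells moved less and in both directions. Of 22 endothelial markers 7 rose and 1 fell (median 0.15), but 1 rose without 50 µg/ml replicate 2, 50 µg/ml replicate 3 or vehicle replicate 3, 2 without vehicle replicate 1 and 3 without vehicle replicate 2. None rose after a repeated quantile normalization. Of 16 epicardial and mesothelial markers 4 rose and 1 fell, and 2 rose without vehicle replicate 2. The largest rises were those of the uroplakin Upk1b at 0.80 ± 0.12 and the membrane glycoprotein Gpm6a at 0.75 ± 0.13. Of 24 fibroblast markers 3 rose and 6 fell, with a median of -0.01. The microfibril protein Mfap5 fell by 1.14 ± 0.06, from 0.21, 0.22 and 0.26 to -0.98, -0.82 and -0.92, and the surface protein Thy1 fell by 0.57 ± 0.08, while Fbln1 rose by 1.00 ± 0.07. The collagen Col1a1 stood at 0.01 ± 0.05. Of 17 markers of smooth muscle and pericytes 4 rose and 5 fell. Both subunits of the vascular ATP-sensitive potassium channel rose, Abcc9 by 1.04 ± 0.07 and Kcnj8 by 0.74 ± 0.10, whereas the pericyte genes Rgs5 and Cspg4 fell by 0.78 ± 0.06 and 0.52 ± 0.06 and the contractile calponin Cnn1 fell by 0.45 ± 0.09. Neuronal and glial markers (2 of 21 rose, none fell, 9.52%) and erythroid markers (1 of 9 rose, 11.1%) were called less often than the 17.6% of all genes, a difference not tested.

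**Figure D3:**
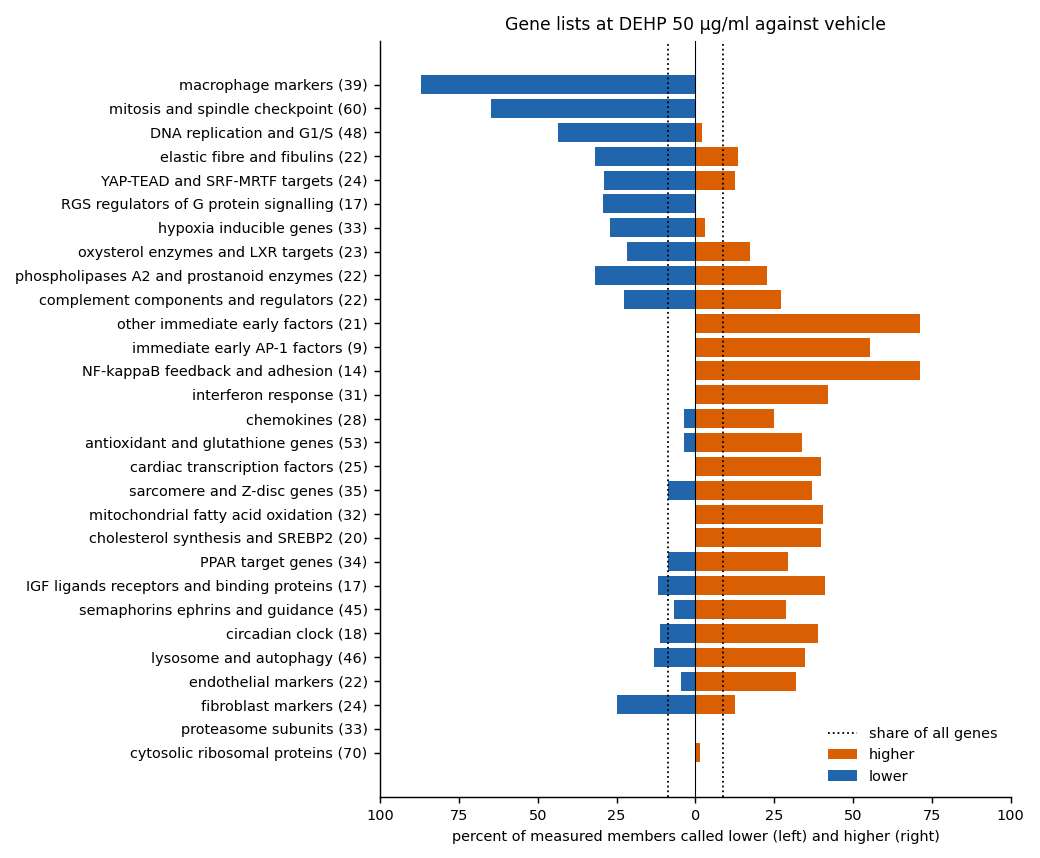
Bars give the percent of the measured members of each list that fell (blue, to the left) or rose (orange, to the right) at 50 µg/ml against the vehicle, with the number measured in brackets, and the dotted lines mark the shares of all genes (8.84% lower and 8.75% higher). The macrophage list reaches farthest to the left, with 34 of 39 members, and no proteasome subunit of 33 has a bar on either side.

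Inflammatory genes of a kind that many cell types make rose while macrophage markers were lower. The NF-kappaB pathway switches on chemokines, adhesion molecules and its own inhibitors. Of 14 measured feedback and adhesion genes 10 rose and none fell (median 0.32), with 7 to 10 in the omissions of 1 array. The inhibitor Nfkbia stood at -0.19 in all 3 vehicle arrays and at 0.64, 0.52 and 0.63 at 50 µg/ml, and rose by 0.79 ± 0.05 (adjusted p = 1.12e-06). Its relatives Nfkbib and Nfkbie rose by 0.43 ± 0.06 and 0.37 ± 0.05. The adhesion molecules Vcam1 and Icam1, which hold leukocytes on cells, rose by 1.18 ± 0.14 and 0.61 ± 0.05. Of 28 chemokines 7 rose and 1 fell (median 0.08), together 28.6% against 17.6% of all genes. Cxcl1, which attracts neutrophils, stood at -0.11, 0.03 and 0.15 against 1.77, 1.14 and 1.12, with replicate 1 as the highest, and rose by 1.32 ± 0.15. The neutrophil chemokine Cxcl6 rose by 0.84 ± 0.11, the monocyte chemokine Ccl2 by 0.62 ± 0.07, the scavenger receptor chemokine Cxcl16 by 0.52 ± 0.06 and the fractalkine Cx3cl1 by 0.48 ± 0.11. Ccl4, which macrophages secrete, fell by 0.33 ± 0.07.

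The promoters of Cxcl1 and Nfkbia are shown because each holds the letters of an NF-kappaB site, searched on both strands as GGGA, any base, then TTTCC, and given in capitals. The stretch of Cxcl1 runs from 99 to 40 bases before its start on the minus strand (chr14:17479361-17479420, GRCr8, RefSeq) and that of Nfkbia from 46 to 1 bases before its start on the minus strand (chr6:78597073-78597118).

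Cxcl1: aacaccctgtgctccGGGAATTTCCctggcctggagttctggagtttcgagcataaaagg

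Nfkbia: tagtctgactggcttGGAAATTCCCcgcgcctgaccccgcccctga

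Only 0.318% of all promoters of the table held these letters, and 0.439% of the 11385 measured genes that had a promoter in it. Of the 961 genes that rose and had a promoter 13 held them, which is 1.35%, and of the 972 that fell 2 did, which is 0.206%. This is a count of letters, and no letters in the window say nothing of the factor.

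Enzymes of eicosanoids, the signalling lipids made from arachidonic acid, went in opposite directions. Of 22 measured, 5 rose and 7 fell, with a median of 0.01, and 4 fell without vehicle replicate 1. Beside Pla2g2a, the inducible cyclooxygenase Ptgs2 stood at -0.21, -0.23 and -0.17 against 0.85, 0.28 and 0.58 and rose by 0.77 ± 0.11. Its highest and lowest treated arrays differed by more than 0.5, but no treated array reached the vehicle arrays. The lipoxygenase Alox15 rose by 0.60 ± 0.10, the secreted phospholipase Pla2g5 by 0.42 ± 0.10 and the prostaglandin D synthase Ptgds by 0.34 ± 0.06. The haematopoietic prostaglandin D synthase Hpgds stood at 0.01, 0.02 and -0.01 against -1.32, -1.41 and -1.34 and fell by 1.37 ± 0.11. The thromboxane synthase Tbxas1 fell by 0.63 ± 0.06, the leukotriene enzyme Alox5 fell by 0.43 ± 0.10 and the constitutive cyclooxygenase Ptgs1 fell by 0.31 ± 0.05. Hpgds, Tbxas1 and Alox5 are known from macrophages, whose markers stood at a median of -1.01 in these cultures, and the part of those cells in these falls was not tested.

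Complement genes split the same way. Of 22 measured, 6 rose and 5 fell. Beside C6, the classical pathway proteases C1s and C1r rose by 0.50 ± 0.07 and 0.29 ± 0.05, C7 by 0.36 ± 0.07 and the collectin Colec12 by 0.24 ± 0.04. All 5 that fell are made or carried by myeloid cells, the 3 C1q chains, C3ar1 and properdin (Cfp), which fell by 0.42 ± 0.09. C3 stood at -0.38 and did not pass. Along the interleukin 6 and STAT3 axis 4 of 22 genes rose and 2 fell. The kinase Pim1 rose by 0.67 ± 0.06, the cytokine Lif by 0.39 ± 0.05, its receptor Lifr by 0.47 ± 0.10 and the factor Cebpb by 0.41 ± 0.06, while Socs3, which blocks STAT3, fell by 0.67 ± 0.05 together with A2m.

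Interferon-stimulated genes, which restrict viruses, were higher with a spread between the treated arrays. Of 31 measured 13 rose and none fell (median 0.25). The list median was 0.24, 0.02 and 0.25 in the 3 treated arrays and -0.07 to -0.01 in the vehicle arrays, so replicate 2 lay below the other two. Rises numbered 8 without 50 µg/ml replicate 1, 6 without replicate 3 and 7 without vehicle replicate 1. Oasl, an oligoadenylate synthetase-like protein, stood at -0.03, 0.03 and -0.03 against 1.22, 0.71 and 1.45 and rose by 1.14 ± 0.16 (adjusted p = 0.000258). The ubiquitin-like Isg15 rose by 0.74 ± 0.17, the GTPase Gbp5 by 0.55 ± 0.11, Ifi27 by 0.37 ± 0.08 and Rtp4 by 0.26 ± 0.06. Ifit3 and Bst2, at 0.40 ± 0.10 and 0.48 ± 0.14, passed with all arrays, but Ifit3 lost the call without 50 µg/ml replicate 1 (0.34), 50 µg/ml replicate 3 (0.32), vehicle replicate 1 (0.41) or vehicle replicate 2 (0.36). Bst2 lost it without 50 µg/ml replicate 1 (0.52) or 3 (0.38), without any 1 of the vehicle replicates (0.45 to 0.51) and after a repeated quantile normalization (0.34). Their promoters are shown with the core of the interferon-stimulated response element, a repeat of GAAA with any 2 bases between the copies, on either strand, in capitals. Of the 9 risen members whose promoter was listed 6 held the core, against 3.32% of all promoters and 3.33% of all genes that rose. Members of the list that did not rise were not counted, so the core cannot be tied to the rise. The stretches are chr1:241527267-241527325 on the plus strand for Ifit3 and chr16:18255054-18255113 on the minus strand for Bst2 (GRCr8, RefSeq).

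Ifit3: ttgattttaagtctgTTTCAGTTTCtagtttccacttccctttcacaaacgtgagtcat

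Bst2: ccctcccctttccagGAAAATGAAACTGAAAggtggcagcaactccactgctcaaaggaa

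Immediate early genes, transcription factors switched on within minutes by growth factors, calcium and stress with no new protein needed, formed another list whose calls all lay in 1 direction. Of 21 such genes outside the AP-1 family 15 rose and none fell (median 0.36), and 13 to 15 rose in the omissions of 1 array. The 3 orphan receptors of the Nr4a family differed in size. Nr4a1 stood at -0.32, -0.26 and -0.31 against 1.59, 1.51 and 1.50 and rose by 1.83 ± 0.11 (adjusted p = 3.83e-07). Nr4a3 rose by 1.21 ± 0.08, and Nr4a2, at 0.26 ± 0.08, was not called without 50 µg/ml replicate 1 (0.23), 50 µg/ml replicate 3 (0.21), vehicle replicate 1 (0.24) or vehicle replicate 3 (0.24). The zinc finger factors Egr1, Egr3 and Egr2 rose by 1.44 ± 0.13, 0.89 ± 0.08 and 0.78 ± 0.13, while Egr4 stood at 0.03. The polo-like kinase Plk2 rose by 0.87 ± 0.09, Ier3 by 0.80 ± 0.11, Klf4 by 0.60 ± 0.07, Csrnp1 by 0.54 ± 0.10 and Myc by 0.47 ± 0.05. Srf, the factor that drives many of these genes, rose by 0.34 ± 0.05. Of 9 AP-1 factors 5 rose and none fell. Fos stood at -0.57, -0.44 and -0.55 against 1.03, 0.44 and 0.44 and rose by 1.16 ± 0.15, with replicate 1 the highest. Atf3, Jund, Fosl1 and Jun rose by 0.46 ± 0.09, 0.40 ± 0.08, 0.36 ± 0.07 and 0.34 ± 0.08. Junb and Mafk stood at -0.12 and -0.10 and did not pass.

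The Nr4a1 promoter is shown because of the size of that rise. Capitals mark TGACG, the short core that binds CREB, on either strand, found at 4 places in the 217 bases from 250 to 34 before the start (chr7:134259888-134260104, plus strand, GRCr8, RefSeq). At least 1 such core stood in 19.3% of all promoters and in 6 of the 9 risen members of the list that had a promoter in the table. Among all genes that rose the share was 26.6% and among those that fell 24.5%. Members of the list that did not rise were not counted.

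Nr4a1: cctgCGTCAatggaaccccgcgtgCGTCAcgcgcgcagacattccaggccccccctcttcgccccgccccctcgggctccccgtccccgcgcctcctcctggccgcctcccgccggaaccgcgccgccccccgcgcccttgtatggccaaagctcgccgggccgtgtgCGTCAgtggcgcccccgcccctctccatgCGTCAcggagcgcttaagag

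Feedback inhibitors of MAP kinase signalling did not move as one. Of 17 measured 7 rose and 4 fell. Phosphatases of the stress kinases JNK and p38 rose, Dusp10 by 0.68 ± 0.06, Dusp8 by 0.45 ± 0.05 and Dusp1 by 0.39 ± 0.08, together with the EGF receptor inhibitor Errfi1 at 0.33 ± 0.06 and Spred2 at 0.55 ± 0.12. Spry1, Dusp6 and Dusp4, which restrain the ERK branch, fell by 0.54 ± 0.05, 0.47 ± 0.08 and 0.37 ± 0.08, whereas Dusp5, also a phosphatase of ERK, rose by 0.35 ± 0.09, a call lost without 50 µg/ml replicate 1 (0.31) or vehicle replicate 2 (0.32). Of 17 regulators of G protein signalling 5 fell and none rose (median -0.19), and 5 or 6 fell in each omission. Rgs1 fell by 1.38 ± 0.15, Rgs4 by 0.97 ± 0.11 and Rgs16 by 0.39 ± 0.08, beside Rgs18 and Rgs5. Rgs18 and Rgs1 are known from leukocytes, and macrophage markers stood at a median of -1.01 in the same comparison. The part of those cells in these falls was not tested.

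**Figure D4:**
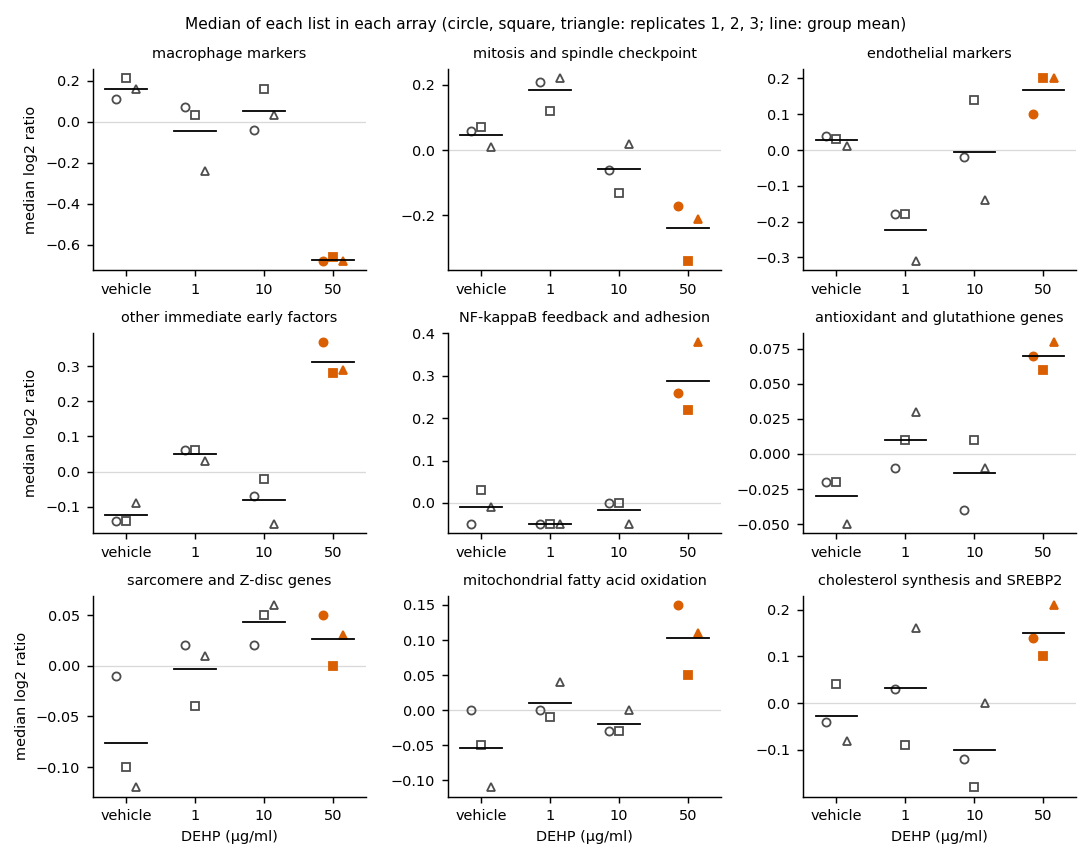
For 9 gene lists, the median log2 ratio of the measured members is plotted for each of the 12 arrays by dose in µg/ml, with circles, squares and triangles for replicates 1, 2 and 3, lines for group means and orange for 50 µg/ml. Each panel has its own y axis. The macrophage panel shows the arrays at 50 µg/ml between -0.68 and -0.66, whereas in the sarcomere panel the groups lie within 0.2 log2 units of each other.

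Contractile genes of the heart rose in part. Cardiac muscle uses atrial and ventricular forms of the myosin light chains, and the fast alpha heavy chain Myh6 and the slow beta chain Myh7. Myl7, the atrial regulatory light chain, stood at -0.06, -0.38 and -0.22 against 1.30, 1.15 and 1.26 and rose by 1.45 ± 0.10 (adjusted p = 1.21e-06). Myh6 and the ventricular light chain Myl2 rose by 0.63 ± 0.08 and 0.56 ± 0.06, while Myh7 stood at 0.19 and did not pass. Myh3, the embryonic heavy chain of skeletal muscle, stood at 0.27, 0.79 and 0.56 against -0.95, -0.67 and -0.93 and fell by 1.39 ± 0.13. The nonmuscle heavy chain Myh10 fell by 0.44 ± 0.05. Of 35 sarcomere and Z-disc genes 13 rose and 3 fell (median 0.12), with 8 risen without 50 µg/ml replicate 1 and 6 without vehicle replicate 3. The creatine kinase Ckm rose by 0.63 ± 0.11, the Z-disc protein Ldb3 by 0.53 ± 0.07, titin (Ttn) by 0.52 ± 0.09, the actin nucleator Lmod2 by 0.47 ± 0.07, the ubiquitin ligase Trim63 by 0.41 ± 0.08 and troponin C (Tnnc1) by 0.35 ± 0.07. The Z-disc proteins Pdlim3 and Pdlim5 and the fast skeletal troponin Tnnt3 fell by 0.54 ± 0.05, 0.26 ± 0.06 and 0.35 ± 0.07.

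Of 25 transcription factors of the heart 10 rose and none fell (median 0.19), with 6 without 50 µg/ml replicate 1 or without vehicle replicate 3. Hopx, a homeodomain protein that restrains Srf, stood at -0.07, -0.01 and -0.08 against 0.85, 0.78 and 0.80 and rose by 0.86 ± 0.07. Smyd1, a methyltransferase needed for heart growth, rose by 0.50 ± 0.09, Tbx3, a factor of the conduction system, by 0.42 ± 0.06, Hey2, a factor of ventricular cells, by 0.34 ± 0.08, and the atrial factors Nr2f1 and Nr2f2 by 0.34 ± 0.07 and 0.27 ± 0.06. Nkx2-5 at 0.24 and Gata4 at 0.21 did not pass. Of 10 genes of natriuretic peptides, their receptors and processing 2 rose and 3 fell, or 1 fell after a repeated quantile normalization. The rises were those of C-type peptide (Nppc) and the clearance receptor Npr3, by 0.74 ± 0.12 and 0.63 ± 0.07. Among the falls, Corin, the protease that activates atrial peptide, fell by 0.33 ± 0.07. Nppb stood at 0.06 and did not pass.

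Genes of calcium cycling and of pacemaker and repolarising currents changed in both directions. Of 30 calcium genes 8 rose and 4 fell, with 5 risen without 50 µg/ml replicate 3 or vehicle replicate 3, and 2 fallen without 50 µg/ml replicate 2, vehicle replicate 1 or vehicle replicate 2. The T-type calcium channels Cacna1g and Cacna1h rose by 0.66 ± 0.07 and 0.42 ± 0.06, the L-type channel subunits Cacnb2 and Cacna1c by 0.46 ± 0.06 and 0.33 ± 0.07, and sarcolipin (Sln), an atrial inhibitor of the calcium pump, by 0.49 ± 0.08. The plasma membrane calcium pumps Atp2b4 and Atp2b1 fell by 0.66 ± 0.06 and 0.33 ± 0.05. Of 37 other channel genes 9 rose in the full set and in each omission, and 7 fell, or 3 after a repeated quantile normalization. The pacemaker channels Hcn4 and Hcn2 rose by 0.53 ± 0.09 and 0.32 ± 0.06 and the acetylcholine-gated channel subunit Kcnj3 by 0.53 ± 0.07. The potassium channels Kcnk3 and Kcnq1 rose by 0.38 ± 0.07 and 0.32 ± 0.07. Trpc6, a calcium-permeable channel, fell by 1.10 ± 0.10, from 0.12, 0.21 and 0.03 to -1.14, -0.98 and -0.82, and the sodium channel Scn7a fell by 0.62 ± 0.10. At cell contacts, 7 of 27 genes of intercalated discs and integrins rose and 4 fell. Rises numbered 3 without 50 µg/ml replicate 1 or 3 and 1 without vehicle replicate 3. Plakoglobin (Jup) rose by 0.44 ± 0.05, and the integrins Itgb8, Itga4 and Itga1 fell by 0.64 ± 0.11, 0.56 ± 0.07 and 0.50 ± 0.07. The gap junction gene Gja1 stood at 0.13 and did not pass.

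Proliferation genes were lower. Progression through mitosis needs cyclins, Aurora and polo kinases and the spindle checkpoint, whose genes are transcribed together late in the cycle. Of 60 measured mitotic genes 39 fell and none rose (median -0.30), and 59 had values below 0. The number that fell depended on single arrays, with 16 without 50 µg/ml replicate 2, 25 without vehicle replicate 3, 19 without vehicle replicate 1 and 18 without vehicle replicate 2. The list median was -0.17, -0.34 and -0.21 in the treated arrays and 0.01 to 0.07 in the vehicle arrays. The cyclin Ccnf stood at 0.18, 0.17 and 0.13 against -0.38, -0.58 and -0.38 and fell by 0.61 ± 0.07 (adjusted p = 5.77e-05). The kinases Aurka and Plk1 fell by 0.54 ± 0.06 and 0.48 ± 0.05, the checkpoint kinase Bub1b fell by 0.44 ± 0.08 and Cdc20, the activator of the anaphase-promoting complex, fell by 0.43 ± 0.08. Cdk1 fell by 0.34 ± 0.07. Of 48 genes of replication and the G1/S step 21 fell and 1 rose (median -0.16), and 13 fell without 50 µg/ml replicate 2 or vehicle replicate 2. The replication factor Gins3 fell by 0.59 ± 0.07, the ribonucleotide reductase subunit Rrm2 fell by 0.51 ± 0.07, Mcm5 fell by 0.43 ± 0.08 and the licensing factor Cdt1 fell by 0.39 ± 0.06. The gene that rose was the kinase Cdk4, by 0.24 ± 0.06. The inhibitor Cdkn1c rose by 0.53 ± 0.05, Cdkn1b stood at -0.16 and did not pass, and Ccng2, a cyclin of resting cells, fell by 0.73 ± 0.11. Macrophages can divide, and their markers were lower in the same arrays at a median of -1.01. Their part in the fall of mitotic genes was not tested.

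The promoters of Ccnf and Cdc20 are shown with the elements common to mitotic genes in capitals, the CHR element TTTGAA (or TTCGAA) and CCAAT, each searched on both strands. The stretches lie on the minus strand at chr10:13783731-13783899 for Ccnf and chr5:137255821-137255900 for Cdc20 (GRCr8, RefSeq).

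Ccnf: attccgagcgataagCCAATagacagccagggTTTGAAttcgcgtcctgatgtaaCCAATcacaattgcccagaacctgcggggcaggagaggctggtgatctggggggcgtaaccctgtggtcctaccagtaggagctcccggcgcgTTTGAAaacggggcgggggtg

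Cdc20: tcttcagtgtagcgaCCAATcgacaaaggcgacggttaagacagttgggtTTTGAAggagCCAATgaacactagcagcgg

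The CHR letters stood in 15 of the 29 fallen mitotic genes with a promoter in the table (51.7%), against 53.1% of all measured members and 17.4% of all promoters, and CCAAT in 21 of 29 (72.4%), against 69.4% of all measured members and 34.4% of all promoters. Members that fell held the letters about as often as the list as a whole.

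The changed genes of fatty acid oxidation were all higher, in small steps. PPAR alpha drives fatty acid oxidation in the heart, the main fuel pathway after birth. Of 32 genes of mitochondrial fatty acid oxidation 13 rose and none fell (median 0.16). The count was 6 without 50 µg/ml replicate 1, 5 without replicate 3, 6 without vehicle replicate 2 or 3 and 7 after a repeated quantile normalization. The acyl-CoA synthetase Acsl1 stood at -0.11, -0.14 and -0.38 against 0.51, 0.32 and 0.42 and rose by 0.62 ± 0.09. The isomerase Eci2 rose by 0.37 ± 0.06, the dehydrogenase Acadl by 0.34 ± 0.08 and the reductase Decr1 by 0.19 ± 0.04. Of 34 PPAR target genes 10 rose and 3 fell (median 0.11), with 6 risen without 50 µg/ml replicate 1, 50 µg/ml replicate 3 or vehicle replicate 2. The pantetheinase Vnn1 rose by 0.57 ± 0.13, lipoprotein lipase (Lpl) by 0.56 ± 0.10, the monooxygenase Cyp4b1 by 0.49 ± 0.08 and the fatty acid binding protein Fabp3 by 0.28 ± 0.06. Of the 3 that fell, Txnip fell by 1.20 ± 0.07, the fatty acid binding protein Fabp4 fell by 0.34 ± 0.08 and the fatty acid carrier Slc27a1 fell by 0.22 ± 0.05. The call of Fabp4 was lost after a repeated quantile normalization (-0.17 ± 0.11, adjusted p = 0.365 in limma). The genes best known as PPAR targets in heart did not pass, Pdk4 at -0.25 ± 0.12, Angptl4 at 0.16 ± 0.09 and Cd36 at -0.25. The receptors Ppara and Pparg stood at 0.01 ± 0.10 and 0.03 ± 0.08. Of 19 receptors, partners and coactivators 2 rose and 1 fell, together 15.8% against 17.6% of all genes. The rises were those of Ppargc1b at 0.39 ± 0.07 and Ncoa1 at 0.38 ± 0.07. The full PPAR response element, 2 copies of AGGTCA with 1 base between them on either strand, was found in none of the 27 PPAR targets with a promoter in the table and in 0.0496% of all promoters, so the search says nothing of the receptor. Of 35 peroxisomal genes 2 rose and 2 fell (median 0.03), which is 11.4% against 17.6% of all genes, and carnitine acetyltransferase (Crat) rose by 0.31 ± 0.06.

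The respiratory chain genes that passed the test were all higher. In complex I 5 of 33 rose (15.2%), and 32 had values above 0. In complexes II to V 5 of 38 rose (13.2%), and 8.75% of all genes rose. The median of complexes II to V against the vehicle was 0.10 at 50 µg/ml and 0.12 at 10 µg/ml. Between these doses 0 of the 38 genes were called higher and 0 lower. The count in complex I was 10 without 10 µg/ml replicate 2, 3 without 50 µg/ml replicate 2, 1 without 50 µg/ml replicate 3 and 2 without vehicle replicate 2 or 3. That in complexes II to V was 8 without 10 µg/ml replicate 2, 3 without 1 µg/ml replicate 1 or 2, 50 µg/ml replicate 1 or vehicle replicate 1, 1 without 50 µg/ml replicate 2 and 0 without 50 µg/ml replicate 3 or vehicle replicate 2 or 3. The triglyceride synthesis genes Dgat2 and Dgat1 rose by 0.72 ± 0.08 and 0.39 ± 0.06, together with the endothelial lipase Lipg at 0.56 ± 0.07. G0s2, which blocks triglyceride breakdown, fell by 0.63 ± 0.09 and Lpin2, a phosphatase of the same pathway, fell by 0.51 ± 0.05. In glycolysis and pyruvate use 5 of 42 rose and 3 fell (median 0.03), together 19% against 17.6% of all genes, with 3 risen without 50 µg/ml replicate 3. Pfkfb3, which sets the pace of glycolysis, fell by 0.79 ± 0.10, the myeloid hexokinase Hk3 fell by 0.59 ± 0.08 and the lactate carrier Slc16a1 rose by 0.50 ± 0.10.

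Genes of cholesterol synthesis that changed were all higher, and oxysterol and LXR genes changed in both directions. Low sterol releases SREBP2, which raises the genes of cholesterol synthesis, while oxysterols activate LXR, which raises the genes of cholesterol export. Of 20 genes of synthesis and SREBP2 control 8 rose and none fell (median 0.21), 5 without vehicle replicate 1 or 3. Insig1, the sterol-sensing anchor of SREBP, rose by 0.73 ± 0.11, the reductase Tm7sf2 by 0.58 ± 0.08, the SREBP escort Scap by 0.41 ± 0.05 and the epoxidase Sqle by 0.38 ± 0.07. Of 23 oxysterol enzymes and LXR targets 4 rose and 5 fell (median 0.08), and 5 fell in each omission of an array. Rises numbered 7 without 50 µg/ml replicate 2. The cholesterol exporter Abca1 stood at 0.17, 0.32 and 0.20 against -1.34, -1.45 and -1.09 and fell by 1.52 ± 0.09. Abcg1, also an exporter, fell by 0.70 ± 0.07 and Mylip, which degrades the LDL receptor, fell by 0.54 ± 0.05. Ch25h, which makes 25-hydroxycholesterol, stood at 0.50, 0.32 and 0.51 against -1.09, -1.38 and -1.30 and fell by 1.70 ± 0.10, and the oxysterol receptor Gpr183 fell by 0.70 ± 0.13. The hydroxylases Cyp7b1 and Cyp27a1 and the lysosomal carrier Npc2 rose by 0.81 ± 0.10, 0.44 ± 0.05 and 0.38 ± 0.07. The LXR genes Nr1h3 and Nr1h2 stood at 0.22 and 0.12, and neither passed. Abca1, Ch25h and Gpr183 are expressed in macrophages among other cells. The part of macrophages in these falls was not tested.

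Among defences against oxidants and foreign compounds more genes rose than fell. Of 53 antioxidant and glutathione genes 18 rose and 2 fell (median 0.15), and 14 to 19 rose in the omissions of 1 array. The microsomal transferase Mgst1 stood at -0.07, -0.17 and -0.26 against 0.89, 0.64 and 0.86 and rose by 0.96 ± 0.08. The cytosolic transferases Gsta1, Gstm2, Gstt1 and Gstp1 rose by 0.63 ± 0.06, 0.59 ± 0.07, 0.43 ± 0.07 and 0.34 ± 0.06, and such relatives may share signal. The plasma peroxidase Gpx3 rose by 0.57 ± 0.06 and the sulfiredoxin Srxn1 by 0.45 ± 0.04. The extracellular dismutase Sod3 and the cellular peroxidase Gpx1 fell by 0.49 ± 0.07 and 0.41 ± 0.07. The classical NRF2 targets Nqo1 and Gclc stood at 0.32 ± 0.14 and 0.30 and did not pass. Of 42 genes of the Ah receptor, cytochromes P450 and transport 10 rose and 2 fell, with 6 risen without 50 µg/ml replicate 3 or vehicle replicate 1 and 5 without vehicle replicate 3. The epoxygenase-like Cyp2u1 rose by 0.50 ± 0.06 and the efflux pumps Abcb1b and Abcb1a by 0.72 ± 0.13 and 0.52 ± 0.08. The receptor Ahr fell by 0.52 ± 0.11, and its best known target Cyp1a1 stood at 0.14 ± 0.06 and did not pass. In retinoid metabolism, opposite to Aldh1a1, the retinaldehyde reductase Dhrs3 stood at -0.01, -0.10 and -0.07 against 0.85, 0.85 and 0.82 and rose by 0.90 ± 0.04, and the transglutaminase Tgm2 rose by 0.78 ± 0.08.

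Other stress pathways changed to different extents. Of 42 genes of the unfolded protein response and amino acid stress 11 rose and 6 fell. Ppp1r15a, which restores translation, rose by 0.57 ± 0.07, the glycine carrier Slc6a9 by 0.56 ± 0.06, Atf5 by 0.54 ± 0.10 and the amino acid carrier Slc7a5 by 0.39 ± 0.06, while Ddit3, the factor CHOP, fell by 0.74 ± 0.07 and the sensor kinase Eif2ak3 fell by 0.38 ± 0.07. Atf4 stood at -0.19 and Xbp1 at 0.20, and neither passed. Of 37 heat shock genes 6 rose and none fell, which is 16.2% against 17.6% of all genes changed in either direction, and 3 rose without 50 µg/ml replicate 3 or vehicle replicate 2. Bag3, a cochaperone of muscle, rose by 0.48 ± 0.05. Of 33 hypoxia genes 1 rose and 9 fell (median -0.09). Ddit4, an inhibitor of mTOR, fell by 1.12 ± 0.11, the hormone Stc1 fell by 0.74 ± 0.13 and Kdm3a, a histone demethylase, fell by 0.39 ± 0.09. Txnip, which responds to glucose and blocks its uptake, stood at 0.08, 0.10 and 0.14 against -1.16, -1.09 and -1.03 and fell by 1.20 ± 0.07. Of 32 p53 targets and growth arrest genes 6 rose and 5 fell, with Gadd45a rising by 0.66 ± 0.08. Genes that respond to glucocorticoids and FoxO rose and fell alike, 9 and 7 of 30. Per1 and Klf9 rose by 0.64 ± 0.06 and 0.48 ± 0.06, while Tsc22d3 and Fbxo32 fell by 0.46 ± 0.08 and 0.60 ± 0.09. The falls numbered 4 without 50 µg/ml replicate 2, vehicle replicate 1 or vehicle replicate 3.

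Among clock genes, whose products repress or drive each other over the day, 7 of 18 rose and 2 fell. The repressors Per2, Per1 and Cry2 rose by 0.60 ± 0.06, 0.64 ± 0.06 and 0.31 ± 0.05, Nr1d1 by 0.69 ± 0.08 and Npas2 by 0.35 ± 0.07. Bmal2 fell by 0.70 ± 0.08, and its relative Bmal1 stood at 0.05 ± 0.08 and did not pass. No source used here gives the hour at which each culture was collected.

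Matrix genes changed in both directions. Elastic fibres are built on fibrillin microfibrils that also hold latent TGF-beta. Of 22 genes of elastic fibres and fibulins 3 rose and 7 fell (median -0.07), with 5 to 7 fallen in the omissions. Ltbp2, a latent TGF-beta binding protein, stood at 0.13, 0.10 and 0.11 against -1.13, -1.16 and -1.02 and fell by 1.22 ± 0.08. Its relatives Ltbp1 and Ltbp4 fell by 0.57 ± 0.07 and 0.48 ± 0.08 and the crosslinking enzyme Loxl3 fell by 0.38 ± 0.07, while elastin (Eln) rose by 0.43 ± 0.07. Of 32 collagen genes 2 rose and 5 fell (median 0.00), together 21.9% against 17.6% of all genes. Falls numbered 3 without 50 µg/ml replicate 3 or vehicle replicate 2 and after a repeated quantile normalization. Col4a4 of basement membranes rose by 0.69 ± 0.06, and Col12a1 and Col5a2 fell by 0.47 ± 0.06 and 0.46 ± 0.07. Of 50 laminins, proteoglycans and glycoproteins 7 rose and 9 fell. The matricellular Smoc1 stood at -0.18, -0.17 and -0.05 against 0.83, 0.98 and 0.96 and rose by 1.05 ± 0.12, fibromodulin (Fmod) rose by 0.84 ± 0.10 and glypican 3 (Gpc3) by 0.64 ± 0.07. Versican (Vcan), Cilp and Tgfbi fell by 0.73 ± 0.08, 0.67 ± 0.10 and 0.65 ± 0.06. Among matrix proteases the membrane-bound Mmp15 and Mmp14 rose by 0.80 ± 0.07 and 0.44 ± 0.05 and the gelatinase Mmp2 by 0.27 ± 0.04. The urokinase Plau, which activates plasmin, stood at 0.38, 0.40 and 0.19 against -0.81, -0.96 and -1.08 and fell by 1.27 ± 0.09. Of the 41 genes of proteases and their inhibitors 12 rose and 5 fell. Rises numbered 7 without 50 µg/ml replicate 1, 6 without vehicle replicate 1 and 7 without vehicle replicate 3, falls 2 without vehicle replicate 3 and after a repeated quantile normalization and 3 without any other of the 6 arrays compared.

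Some ligands and antagonists of the TGF-beta family fell. Of 27 genes of TGF-beta and activin signalling 2 rose and 5 fell, together 25.9% against 17.6% of all genes. The activin subunit Inhba stood at 0.31, 0.02 and 0.10 against -0.87, -0.87 and -0.64 and fell by 0.94 ± 0.09. The activin antagonist Fst fell by 0.69 ± 0.06, Tgfb3 fell by 0.54 ± 0.05 and the receptor Tgfbr1 fell by 0.41 ± 0.08, while the coreceptor Tgfbr3 rose by 0.66 ± 0.09. Of 29 genes of BMP signalling 6 rose and 2 fell (27.6%). The BMP antagonist Grem1 stood at 0.07, 0.30 and 0.28 against -1.24, -1.02 and -0.86 and fell by 1.25 ± 0.09, whereas the antagonist Chrdl1, the ligand Bmp3 and the targets Id2 and Id4 rose by 0.91 ± 0.08, 0.63 ± 0.07, 0.70 ± 0.07 and 0.55 ± 0.08. In the Wnt pathway 8 of 54 rose and 5 fell, together 24.1% against 17.6% of all genes. The secreted Sfrp2 rose by 0.89 ± 0.12, the receptor Ror1 by 0.53 ± 0.06 and Wnt4 by 0.52 ± 0.09, and Nkd2, an inhibitor of the pathway, fell by 0.99 ± 0.07. Wnt rises numbered 4 without 50 µg/ml replicate 3 or vehicle replicate 1, 5 without vehicle replicate 2 or 3 and 4 after a repeated quantile normalization. Wnt falls numbered 3 without 50 µg/ml replicate 1, 50 µg/ml replicate 3 or vehicle replicate 2, and 2 without vehicle replicate 3.

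Growth factors changed by family member. Of 46 ligands and receptors of the FGF, VEGF, PDGF and related families 9 rose and 7 fell. Together these are 34.8%, against 17.6% of all genes. Fgf10, a ligand of mesenchymal cells, stood at 0.07, 0.23 and 0.23 against -0.74, -0.81 and -0.84 and fell by 0.98 ± 0.09. Fgf2, Tgfa and Nrg1, which binds the receptors of heart muscle cells, fell by 0.54 ± 0.08, 0.52 ± 0.09 and 0.48 ± 0.09. Angpt2, which destabilises vessels, stood at 0.01, -0.08 and -0.13 against 0.95, 0.85 and 0.94 and rose by 0.98 ± 0.07. Vegfb rose by 0.54 ± 0.06, the coreceptor Nrp1 by 0.49 ± 0.05 and the HGF receptor Met by 0.31 ± 0.06. Of 17 genes of the IGF system 7 rose and 2 fell, with 4 risen without 50 µg/ml replicate 1 and after a repeated quantile normalization. The binding proteins Igfbp5, Igfbp4 and Igfbp2 rose by 0.84 ± 0.09, 0.82 ± 0.11 and 0.43 ± 0.06 together with Pappa, the protease that cleaves them, at 0.84 ± 0.10, and the adaptor Irs1 fell by 0.37 ± 0.06. Of 45 guidance genes 13 rose and 3 fell, with 8 risen without vehicle replicate 3. The semaphorin Sema3d rose by 1.06 ± 0.16, netrin (Ntn1) by 0.71 ± 0.09, Sema5a by 0.55 ± 0.08, Efna5 by 0.46 ± 0.06 and Robo1 by 0.39 ± 0.07. Targets of YAP and of the Srf cofactor MRTF were 3 higher and 7 lower of 24. Ccn2, a YAP target of fibrosis, fell by 0.37 ± 0.05 and the gut actin Actg2 rose by 0.65 ± 0.08.

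Receptors and peptides of neurohumoral control also changed. Of 31 genes of adrenergic, muscarinic and adenosine signalling 7 rose and 2 fell. The adenosine receptors Adora2b and Adora2a rose by 0.69 ± 0.09 and 0.57 ± 0.12 and the adrenergic receptor Adra1b by 0.52 ± 0.09, while the receptor kinase Grk2 fell by 0.37 ± 0.06. The angiotensin receptor Agtr1a and the converting enzyme Ace rose by 0.56 ± 0.08 and 0.43 ± 0.08 as angiotensinogen (Agt) fell by 0.63 ± 0.09. Ramp3, a partner of the adrenomedullin receptor, fell by 0.99 ± 0.13. Of 29 neuropeptides and granins 4 rose and 1 fell, together 17.2% against 17.6% of all genes, so the list as a whole lay at the share of all genes. Besides Npy and Scg2 these included Penk, the precursor of enkephalins, which stood at -0.06, 0.07 and 0.05 against 0.88, 0.61 and 0.86 and rose by 0.76 ± 0.07, and the tachykinin Tac3, which rose by 0.48 ± 0.07. Other granins, such as Chgb at 0.15 and Scg3 at -0.06, did not pass.

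Genes of protein synthesis and breakdown were called to very different extents, against 17.6% of all genes. None of 33 proteasome subunits passed the limma test, with values from -0.18 to 0.17 and 2 at an unadjusted p under 0.05, and 1 of 70 cytosolic ribosomal proteins rose (1.43%). Of 67 mitochondrial ribosomal proteins 11 rose and 2 fell (19.4%, median 0.08). The rises numbered 7, 6 and 5 without 50 µg/ml replicates 1, 2 and 3 and 6, 4 and 6 without vehicle replicates 1, 2 and 3. Of 46 genes of lysosomes and autophagy 16 rose and 6 fell (47.8%), with 10 risen without vehicle replicate 1. The channel Mcoln1 rose by 0.43 ± 0.05 and the membrane protein Lamp1 by 0.23 ± 0.04, and the falls included Ctss and the macrophage marker Cd68, which fell by 1.14 ± 0.11. Of 19 aminoacyl tRNA synthetases 6 rose and none fell (31.6%), 3 without vehicle replicate 1 or 3, with Aars1 rising by 0.42 ± 0.06 and Wars1 by 0.35 ± 0.05.

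The lower doses were used to ask which of these values set 50 µg/ml apart from them. Against 10 µg/ml 2091 genes differed (14.6%), 1110 higher (7.75%) and 981 lower (6.85%), and against 1 µg/ml 3562 genes (24.9%), 1641 higher (11.5%) and 1921 lower (13.4%), in contrasts that hold no vehicle array but share the arrays at 50 µg/ml. After a repeated quantile normalization these counts were 1265 against 10 µg/ml and 2155 against 1 µg/ml. Against the vehicle itself, 608 genes differed at 1 µg/ml (4.24%) and 0 at 10 µg/ml in limma, where 899 had an unadjusted p under 0.05. Of 39 macrophage markers 32 were lower and 1 higher than at 10 µg/ml and 31 lower and 1 higher than at 1 µg/ml. Pla2g2a was higher by 2.98 ± 0.24 than at 10 µg/ml and by 3.28 ± 0.24 than at 1 µg/ml, and Npy by 2.34 and 2.40. Mt1 was higher by 1.71 and 2.10. Mitotic genes, 39 of which fell against the vehicle, were lower than at 10 µg/ml in 12 of 60 and lower than at 1 µg/ml in 48 of 60. Sarcomere genes differed from 10 µg/ml in both directions, 5 higher and 6 lower of 35.

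Some genes stood at 50 µg/ml where they stood at 1 µg/ml, with the vehicle and 10 µg/ml apart from both. The difference of Vof16 from 10 µg/ml was -2.04, and from 1 µg/ml it was -0.14 ± 0.13 (adjusted p = 0.458). Ddit4 differed from 10 µg/ml by -1.15 and from 1 µg/ml by 0.06, Ddit3 by -0.69 and -0.02, and Socs3 by -0.59 and 0.04, and none of the 3 differences from 1 µg/ml passed the test, which does not show equal levels. Fos was higher than at 10 µg/ml by 1.14 and stood -0.40 from 1 µg/ml, where its arrays lay at 1.08, 1.28 and 0.75 (adjusted p = 0.0679). Nr4a1, in contrast, was higher than at 10 µg/ml by 1.92 and higher than at 1 µg/ml by 1.25 ± 0.11. Egr1 was higher than at 10 µg/ml by 1.33 and than at 1 µg/ml by 0.38 ± 0.13 (adjusted p = 0.0498 in limma). At 1 µg/ml Egr1 already stood 1.07 ± 0.13 above the vehicle. Other genes stood on opposite sides of the vehicle in the arrays of 1 and 50 µg/ml. Aldh1a1 differed by -1.33 from 10 µg/ml and by -2.07 from 1 µg/ml. Scg2 differed by -1.33 and -2.54 from these doses, Myh3 by -0.50 and -1.94 and the chemokine Ccl2 by 0.88 and 1.19. Dose and any condition that went with the cultures of a dose cannot be told apart.

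**Figure D5:**
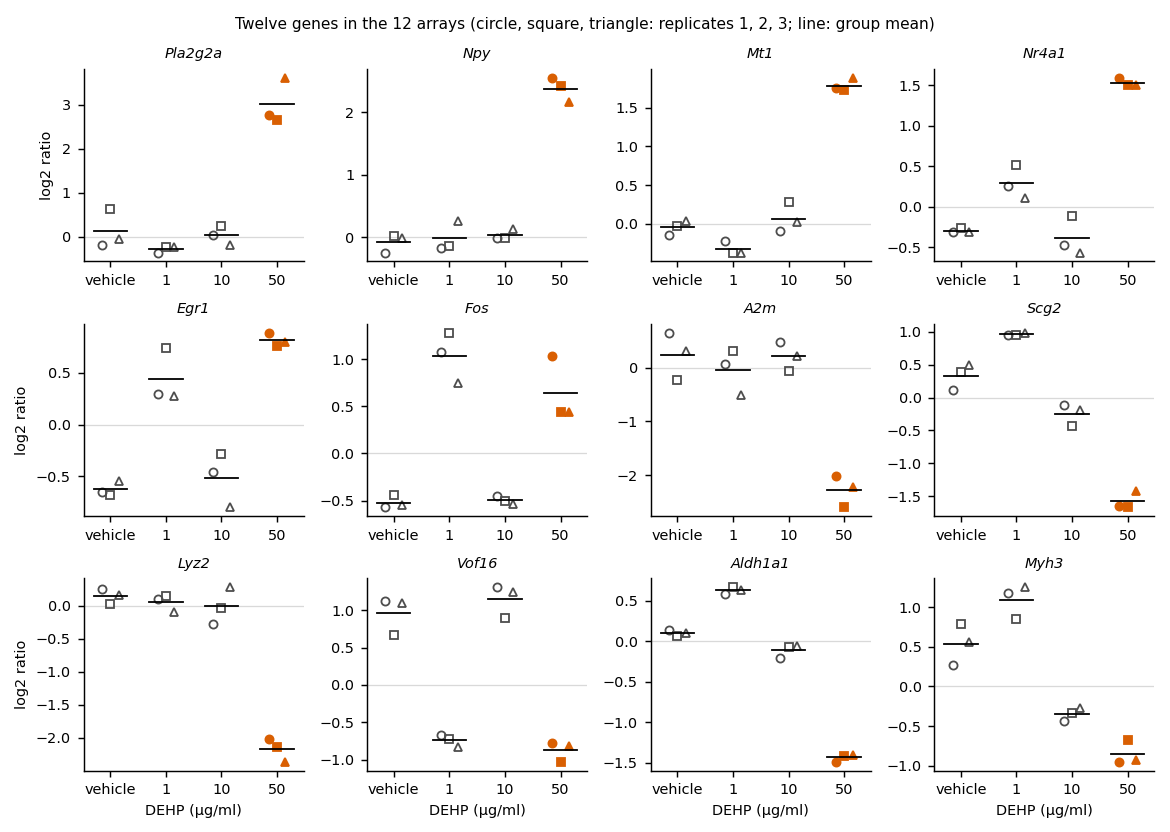
The log2 ratio of 12 genes is plotted for each of the 12 arrays by dose in µg/ml, with circles, squares and triangles for replicates 1, 2 and 3, lines for group means and orange for 50 µg/ml. Each panel has its own y axis. Pla2g2a, Npy, Mt1, A2m and Lyz2 lie apart from the other 9 arrays at 50 µg/ml, whereas Fos and Vof16 stand at 1 µg/ml near their values at 50 µg/ml.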

How the data were processed

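RNA of 12 cultures was hybridised to Affymetrix arrays, 1 array each. The authors summarised probes with RMA, per the submitters' processing notes (version not given in the sources used here), and deposited linear ratios. From the values, each ratio is an array over the median of the probe set across the 12 arrays: the midpoint of its 6th and 7th ratio was 1 within 5e-07 on the log2 scale. Ratios keep no level, so no filter on weak signal could be applied as planned, and the direction of the ratio is taken as array over median. Of 27342 probe sets, 15097 had exactly 1 symbol, 323 several and 11922 none; the log2 of the deposited ratios was averaged over the probe sets of a gene, which concerned 499 genes.

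A group-means model over all 12 arrays was fitted with limma 3.58.1 (R 4.3.3, lmFit and eBayes), with Benjamini-Hochberg adjustment over 14324 genes. On simulated data with 100 genes changed at each size, the fit recovered 92% of genes changed by 0.5 log2 units and 100% of those changed by 1, with 5 false calls. The simulated noise was normal, independent between genes and of equal spread in all groups. Real arrays need not meet these settings, so the figures are not error rates of these data. The members and the 78 gene lists were chosen with earlier results of these data known. Genes were named as the 25 largest rises and falls among called genes with groups that did not overlap, and as list members. The 20 alternatives were the omission of each array in turn, repeated quantile normalization, median centring, robust and mean-dependent moderation, array weights, the 6 arrays alone, a replicate block and single probe sets. Promoters came from RefSeq (GRCr8), of which 24206 had a unique symbol and 11385 matched a measured gene.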

Additional observations from a re-analysis of the deposited data

How the results depend on the processing

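The counts of genes that changed, rose or fell against the vehicle stayed within 1.5 times of their values under all alternatives run, from 1731 to 3181 genes changed. A repeated quantile normalization gave 2096 genes, and it lowered the count against 10 µg/ml to 1265 and against 1 µg/ml to 2155, beyond 1.5 times in both. Of the 2520 genes called, 1403 were called under all 20 alternatives and none was called in the opposite direction. Of the 323 named genes that passed, 317 passed under every alternative and none reversed; 60 had a difference smaller by more than 1.5 times after the repeated quantile normalization, 59 of them still called, 23 of them among the 50 largest. Among these Lyz2 stood at -1.33, Aldh1a1 at -0.89 and Cxcl1 at 0.74. This step forces all arrays to 1 spread. Before it the SD of the log2 ratios was 0.166 to 0.199 in the arrays at 50 µg/ml and 0.0869 to 0.0918 in the vehicle arrays. A smaller difference after this step is therefore no separate result about a gene, and how much of it the unlike spread accounts for was not tested.

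With the replicate number as a block 2540 genes were called, 1220 higher and 1320 lower, and 2367 of the calls were shared. The deviations of same-numbered vehicle and 50 µg/ml arrays from their group means correlated at 0.199, -0.08 and -0.0796. Differently numbered arrays gave -0.244 to 0.276. These values show no pairing by number, but with 3 arrays a group they cannot exclude one.

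The number of arrays, 3 a group from 1 litter, limits the precision. Signal over background is lost in the ratios, so a gene near background cannot be told from one that did not change. Under the alternative prior settings 1 named call was lost, that of Pla2g2a with the prior following the mean. That mean is one of ratios and not of level.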

Other observations

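Genes that lie next to each other in the RefSeq order of the rat genome (GRCr8) and both changed were counted as a description, with no test and with pairs chosen after their values were seen. Of 9955 pairs of measured neighbours 371 had both genes called, 101 both higher, 115 both lower and 155 in opposite directions. Of all genes 17.6% were called, so some pairs with both called arise without any link between neighbours. How many was not computed, and the counts do not show that neighbours changed together. The pairs that were both higher included Plcxd3 and C6 at 1.42 and 2.08, Gpr39 and Lypd1 at 0.82 and 1.23, and Kcnj8 and Abcc9, the 2 subunits of 1 potassium channel, at 0.74 and 1.04. Il1rl2 and Il1rl1, receptors of the interleukin 1 family, were both lower at -0.87 and -1.05. Akr1c14 and Akr1c15, Aox1 and Aox3, and Abcb1a and Abcb1b are neighbours that are related in sequence, and whether their signals are separate was not tested.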
